A study of Mus musculus with 8 samples.

Results

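Fatty acid uptake, storage, synthesis and oxidation was followed through 45 genes in primary mouse embryonic fibroblasts (MEFs), connective tissue cells taken straight from embryos. The genes were taken from a list of known enzymes, carriers and regulators, and each was read from the probe set of the array annotated to it alone, the one with the highest mean over the 8 arrays where there were several. Of the 45, 42 had such a probe set. Acsl1, Acacb and Lipe had none and were not analysed here. All 42 passed the floor on dim signals, a mean of 6.06 on the log2 scale, and no member had a genotype mean below it, so none entered the test through 1 genotype alone. They are 42 of 13307 genes with a probe set and 42 of 9511 tested.

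The study compared 4 wild-type (WT) lines with 4 lines of genotype Cry1-/-|Cry2-/- (Cry DKO), 1 array per line, each line independent. Cry1 and Cry2 encode the cryptochromes, which repress the transcription factors CLOCK and ARNTL in the circadian clock. Both genotypes came from a near-C57BL/6J background with more than 7 backcrosses away from BL6/129, grew in DMEM/F10 medium with 10% serum under 3% oxygen, received no treatment and were proliferating asynchronously, so that no clock phase or nutritional state was set. All values below are signals on the log2 scale, and a difference is the Cry DKO mean minus the WT mean, with n = 4 lines in each genotype. A gene was called when its adjusted p in limma was under 0.05 after Benjamini-Hochberg adjustment over the 9511 genes.

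Fatty acids enter cells through the scavenger receptor CD36 and the SLC27 transport proteins, are carried in the cytosol by FABP proteins and are activated to acyl-CoA by ACSL enzymes. New fatty acids are made from citrate by ACLY, ACACA and FASN and are then lengthened by ELOVL and desaturated by SCD and FADS enzymes, steps that respond to the transcription factor SREBP1. Acyl chains are stored as triglyceride in lipid droplets coated by perilipins, or pass into mitochondria through the carnitine shuttle of CPT1, SLC25A20 and CPT2 to be oxidised, and many genes of uptake, storage and oxidation respond to the PPAR receptors.

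In these lines 10 of the 42 members were called, 5 higher and 5 lower in Cry DKO lines. The higher genes were the receptor Cd36, the activating enzyme Acsl4, the elongases Elovl5 and Elovl6 and the desaturase Fads1. The lower genes were the transporter Slc27a1, the binding protein Fabp3, the lipid droplet coat Plin2 and both carnitine palmitoyltransferases, Cpt1a and Cpt2. Cd36 differed by 1.14, a 2.20-fold difference, and the other 9 by 1.20-fold to 1.48-fold. The called share was 23.8% of the members beside 9.18% of all tested genes, with 11.9% of members higher beside 4.95% and 11.9% lower beside 4.23%. The median difference over the 42 members was 0.05, beside -0.01 over all tested genes. The genotypes did not overlap for 14 of the 42 (33.3%), beside 16.8% of all tested genes: 6 members lay higher (14.3%, beside 8.32%) and 8 lower (19.0%, beside 8.44%). These shares describe a list chosen with earlier results of these arrays known and carry no test.

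**Figure D1:**
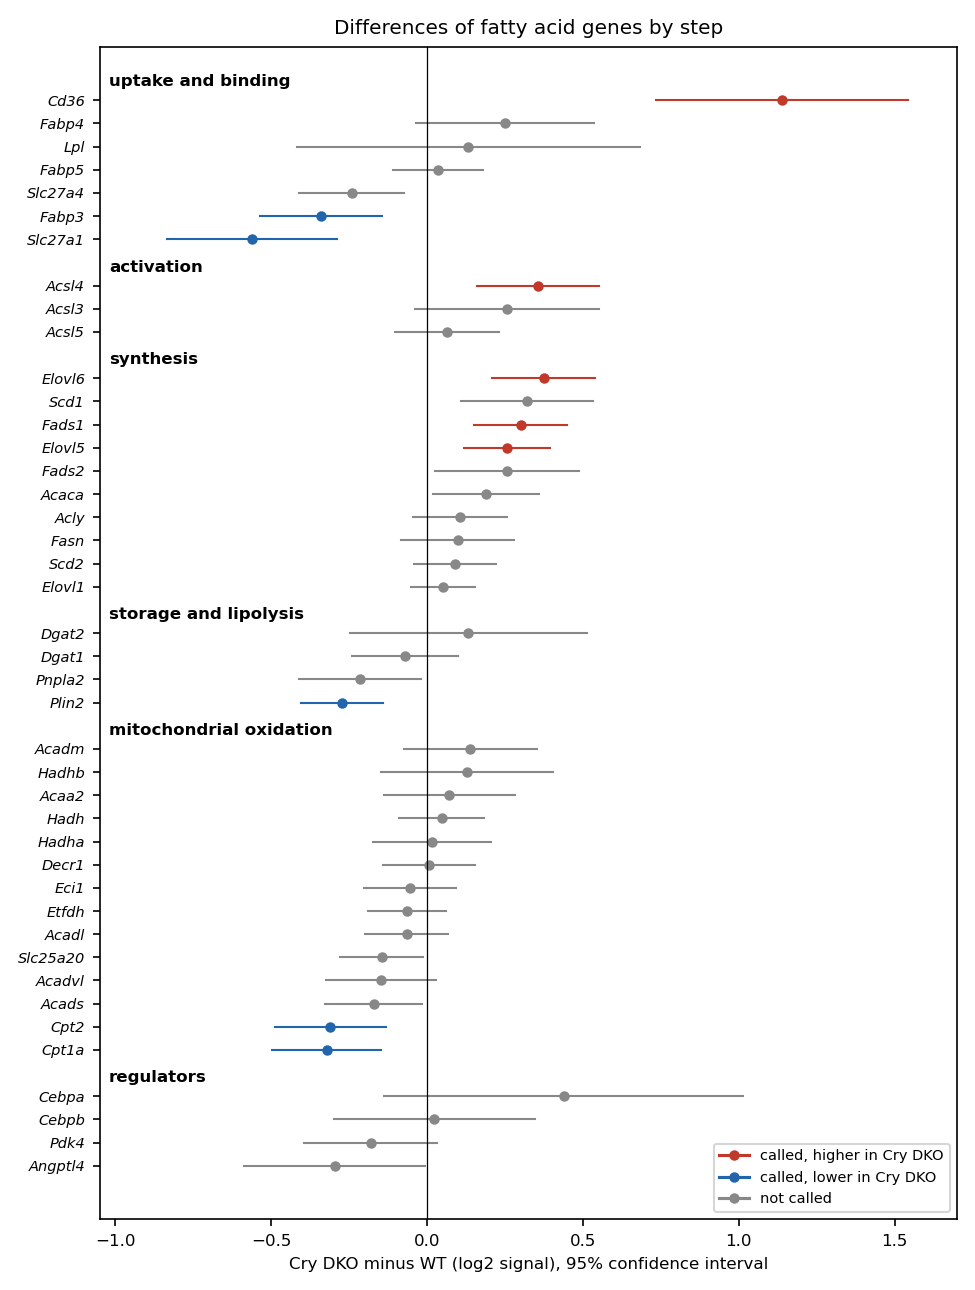
Difference of each of the 42 measured genes between genotypes, as log2 Cry DKO mean minus log2 WT mean, grouped by step; points are differences of means (n = 4 lines each), bars 95% confidence intervals from limma, red and blue the called genes. The 10 synthesis genes all lie to the right of 0, as do 6 of the 14 mitochondrial oxidation genes and 1 of the 4 storage genes. The called genes of storage and mitochondrial oxidation lie to the left.

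Depth and labels were checked first. Array medians lay between 6.78 and 6.79, the median within-genotype SD of a tested gene was 0.13, and the number of arrays limits the precision. Cry1 and Cry2 had differences of -0.50 (adjusted p = 0.168 in limma) and -0.34 (adjusted p = 0.132), which do not check the genotypes because the position of these probes relative to the deletions was not known here. Per2, a clock gene held down by cryptochromes, rose by 2.84. Of 12 fibroblast markers, 8 were tested, among them Col1a1 at 13.4 and Vim at 14.0 in WT lines, while Dcn, Lum and Pdgfra had means of 5.58, 5.04 and 5.50, below the floor. All 8 tested fibroblast markers had differences below 0 (median -0.12), and 1 of them, Col5a1, fell, by 0.16 (adjusted p = 0.032 in limma). Xist and Y-linked signals gave 1 female and 3 male lines in WT and 2 and 2 in Cry DKO.

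Macrophage signal moved with the genotype. All 20 markers of a macrophage list were tested, all 20 had a positive difference, and 11 of them rose and none fell (median difference 0.76). The mean of the list was 8.80, 8.16, 8.46 and 8.68 in WT lines 1 to 4 and 9.78, 9.36, 8.80 and 9.09 in Cry DKO lines 1 to 4, and none of its markers had a genotype mean below the floor. Aif1, at 6.24 among WT and 6.33 among Cry DKO lines, and Itgam, at 6.25 and 7.07, lay near the floor with single lines below it, while Lyz2 was at 11.3 among WT and 12.2 among Cry DKO lines. WT line 1 and Cry DKO line 3 had the same macrophage mean, 8.80, a pair picked after these values were seen and of different sex. In bulk RNA a larger number of cells of 1 type cannot be told apart from more RNA per cell. Of 11 adipocyte markers 4 had a probe set, and all 4 lay below the floor, Adipoq at 2.27 and Pparg at 5.27. Of 12 endothelial markers 6 had one and 1 was above the floor. Macrophages are known to express Cd36, Lpl, Fabp4, Fabp5 and Cebpa among the members, and the part of macrophage RNA in their results was not tested beyond the values given below.

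Sequences around the starts of genes are shown here for the called members in whose window a short motif was found, windows and motifs picked after the calls were seen, to let the letters be read beside the differences. Windows run from 250 bases before to 50 bases after each start in RefSeq (GRCm38.p6), and 34 members, 9 of the 10 called, had at least 1. Searched on both strands were the E-box CACGTG bound by CLOCK and ARNTL, its variant CACGTT, the sterol response motif TCACNCCAC bound by SREBP, the nuclear receptor half-site AGGTCA and the D-box TTATGTAA. No match overlapped another. Matches are in capitals and read as on the strand of the gene, so a half-site on the other strand reads TGACCT and the E-box variant AACGTG.

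Cd36 (chr5:17835847-17836146, minus strand): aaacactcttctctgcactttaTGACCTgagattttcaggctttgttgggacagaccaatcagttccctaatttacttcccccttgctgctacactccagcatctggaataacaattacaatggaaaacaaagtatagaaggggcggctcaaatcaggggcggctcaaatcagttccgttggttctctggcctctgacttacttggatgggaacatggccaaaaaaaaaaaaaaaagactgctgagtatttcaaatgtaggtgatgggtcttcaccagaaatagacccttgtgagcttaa
Elovl5 (chr9:77917115-77917414, plus strand): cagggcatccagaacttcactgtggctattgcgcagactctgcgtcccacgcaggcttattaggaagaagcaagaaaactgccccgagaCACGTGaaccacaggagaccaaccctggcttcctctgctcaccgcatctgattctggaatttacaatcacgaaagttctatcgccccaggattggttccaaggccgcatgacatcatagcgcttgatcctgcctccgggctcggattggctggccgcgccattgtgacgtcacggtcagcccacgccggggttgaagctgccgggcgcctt
Elovl6 (chr3:129532136-129532435, plus strand): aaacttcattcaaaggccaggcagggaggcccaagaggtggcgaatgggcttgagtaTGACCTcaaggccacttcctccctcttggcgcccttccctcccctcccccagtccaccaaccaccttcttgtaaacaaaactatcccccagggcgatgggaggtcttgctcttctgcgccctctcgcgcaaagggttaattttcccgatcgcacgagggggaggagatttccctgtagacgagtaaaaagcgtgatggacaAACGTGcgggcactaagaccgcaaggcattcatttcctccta
Slc27a1 (chr8:71570344-71570643, plus strand): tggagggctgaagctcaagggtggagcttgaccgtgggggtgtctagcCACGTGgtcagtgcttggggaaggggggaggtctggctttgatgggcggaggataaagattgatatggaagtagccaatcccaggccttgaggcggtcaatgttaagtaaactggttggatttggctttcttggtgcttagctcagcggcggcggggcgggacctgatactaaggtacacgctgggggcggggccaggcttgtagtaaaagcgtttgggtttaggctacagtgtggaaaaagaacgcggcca
Plin2 (chr4:86670010-86670309, minus strand): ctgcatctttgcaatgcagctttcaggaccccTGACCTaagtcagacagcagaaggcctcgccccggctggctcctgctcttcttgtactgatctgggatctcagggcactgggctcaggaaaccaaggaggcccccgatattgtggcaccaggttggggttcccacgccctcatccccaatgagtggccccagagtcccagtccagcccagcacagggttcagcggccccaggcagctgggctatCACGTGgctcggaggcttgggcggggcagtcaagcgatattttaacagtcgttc
Cpt1a (chr19:3323051-3323350, plus strand): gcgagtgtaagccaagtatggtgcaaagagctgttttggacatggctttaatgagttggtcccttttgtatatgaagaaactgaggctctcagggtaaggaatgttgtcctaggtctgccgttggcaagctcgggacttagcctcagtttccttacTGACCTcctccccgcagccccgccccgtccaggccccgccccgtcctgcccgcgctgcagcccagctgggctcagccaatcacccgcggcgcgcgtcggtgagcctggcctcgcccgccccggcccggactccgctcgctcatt

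An E-box lay 161 bases before the start of Elovl5, which was higher in Cry DKO lines, and 202 and 4 bases before those of Slc27a1 and Plin2, which were lower. Of the 3 start sites of Slc27a1 in the table only the one shown held a match. CACGTG was found in 10.3% of the 39 windows of members and in 10.2% of the windows of tested genes (7.15% of all 32851 windows). The half-site lay 228 bases before the start of Cd36, 193 before that of Elovl6, 218 before that of Plin2 and 94 before that of Cpt1a. It was found in 23.1% of member windows, 11.8% of those of tested genes and 16.3% of all. The E-box variant of Elovl6 lay 8 bases after the start, and this variant was in 5.13% of member windows, 5.32% of those of tested genes and 4.68% of all. The sterol motif was in 1 member window, that of Acsl1 (2.56%, beside 1.17% for tested genes and 1.24% of all), and the D-box in none (0.429% for tested genes and 0.938% of all). The letters in these windows do not show binding, and matches stood in windows of higher and of lower genes.

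Of 7 uptake and binding genes 1 rose (14.3%, beside 4.95% of all tested genes) and 2 fell (28.6%, beside 4.23%). Each step holds few genes, and the shares by step carry no test. Cd36, the receptor for long-chain fatty acids and oxidised lipoproteins, had signals of 7.16, 6.40, 6.84 and 7.15 in WT lines 1 to 4 and of 8.25, 8.01, 7.63 and 8.23 in Cry DKO lines 1 to 4. Every Cry DKO line lay above every WT line, with line 3 the lowest of the 4. The rise was 1.14 (SE 0.18, adjusted p = 0.00476 in limma). The call held in each fit without 1 array, with differences of 0.98 to 1.27. Its other probe set above the floor gave 0.84 and was not called, with an adjusted p of 0.0613 when it stood for the gene. Within WT the lines stood in the same order for Cd36 as for the macrophage mean, line 2 lowest and line 1 highest. Within Cry DKO, line 1 was highest and line 3 lowest for both. Only the middle lines changed places, since line 2 was above line 4 for the macrophage mean and below it for Cd36. In the pair with equal macrophage means the Cd36 signals differed by 0.46, and without overlap every pair of a WT and a Cry DKO line differed. With the macrophage mean as a covariate the difference was 0.60 (SE 0.20, adjusted p = 0.179).

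Slc27a1, also called FATP1, a transporter that couples uptake to activation, had 6.99, 6.82, 6.91 and 6.68 among WT and 6.34, 6.48, 6.22 and 6.11 among Cry DKO lines. The groups did not overlap, and the gene fell by 0.56 (SE 0.12, adjusted p = 0.0205 in limma). Its Cry DKO signals lay near the floor of 6.06. Its other probe set, below the floor, gave -0.31, and with the mean of its probe sets the difference was -0.44 (adjusted p = 0.0626), not called. The call ended without WT replicate 1 or WT replicate 3. Fabp3, the fatty acid binding protein of heart and muscle, had 7.84, 7.86, 7.82 and 7.71 among WT and 7.61, 7.46, 7.30 and 7.49 among Cry DKO lines. It fell by 0.34 (SE 0.09, adjusted p = 0.0382), again without overlap, but the call held in only 1 of the 8 fits without 1 array, that without Cry DKO replicate 1. Slc27a4, or FATP4, a further transporter of very long chains, had 8.38, 8.32, 8.28 and 8.16 among WT and 8.15, 8.05, 7.98 and 7.99 among Cry DKO lines. Its groups were also separate, narrowly, and its difference of -0.24 (SE 0.08, adjusted p = 0.0728) did not pass.

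Lpl, Fabp4 and Fabp5, also of this step, were not called either. Lpl, the lipase that releases fatty acids from lipoproteins, had a difference of 0.13 (95% confidence interval -0.42 to 0.68). It varied most among all members within Cry DKO lines, with 8.66, 7.88, 7.51 and 7.31 in lines 1 to 4 (SD 0.59) against 7.61, 7.45, 7.65 and 8.12 in WT lines (SD 0.29). Cry DKO line 1, the highest for Lpl, was also the line of highest macrophage mean. With the macrophage covariate the difference of Lpl was -0.64 (SE 0.25, adjusted p = 0.232 in limma), of the opposite sign and not called. Fabp4, the binding protein of adipocytes and macrophages, had a difference of 0.25 (-0.03 to 0.54) and Fabp5 one of 0.03 (-0.11 to 0.18). Of 8 tested genes of a further uptake, binding and lipase list none was called, and those of smallest p were the lipase maturation factor Lmf1 at -0.28 (adjusted p = 0.278) and the acyl-CoA binding protein gene Dbi at 0.09.

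**Figure D2:**
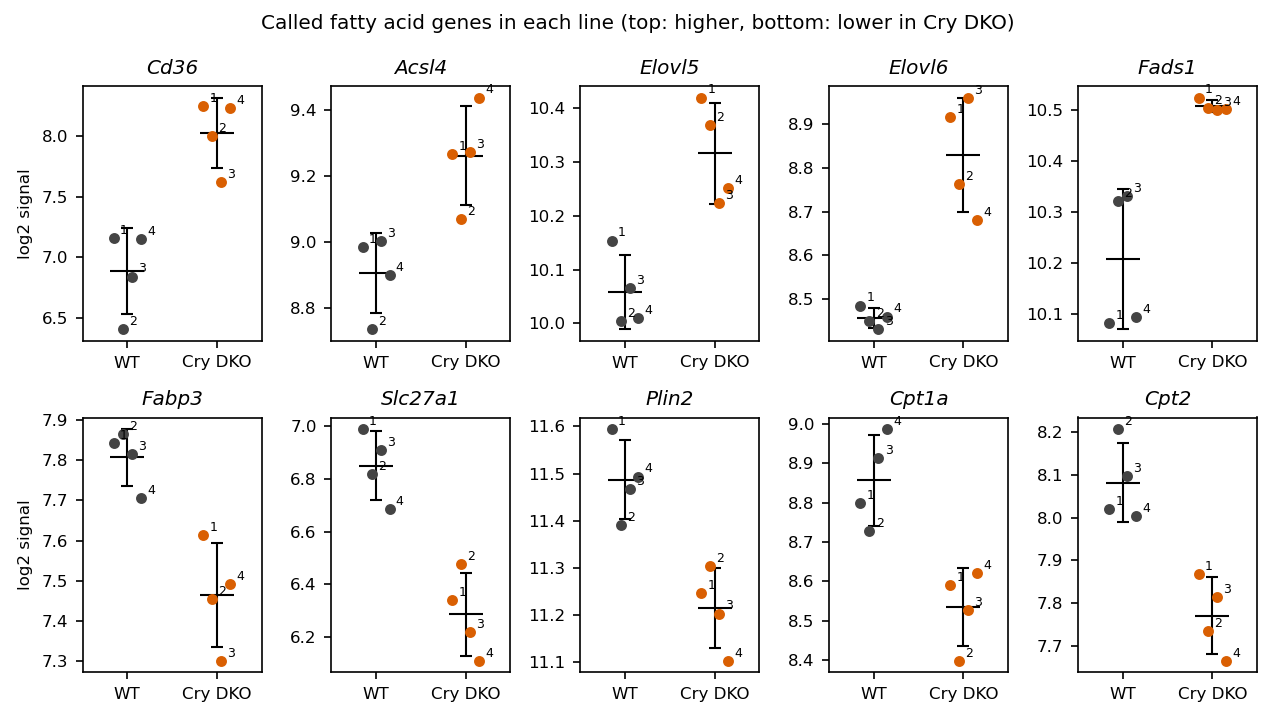
Signal (log2) of the 10 called genes in each line, numbered 1 to 4 within WT and Cry DKO; horizontal marks and bars are mean ± SD of 4 lines, and the axes do not start at 0. In every panel the genotypes do not overlap, and Fads1 shows 4 nearly equal Cry DKO lines at 10.5.

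Activation of fatty acids was represented by 3 ACSL genes, all with positive differences. Acsl4, which prefers arachidonic and other polyunsaturated acids, had 8.984, 8.734, 9.001 and 8.898 among WT and 9.266, 9.069, 9.271 and 9.436 among Cry DKO lines. Its groups were separate, and it rose by 0.36 (SE 0.09, adjusted p = 0.0317 in limma). Its other probe sets above the floor gave 0.27 and 0.30. The call held only without Cry DKO replicate 2 among the 8 fits that leave out 1 array. Acsl4 lies on chromosome X, and with sex as a term its difference was 0.32 (adjusted p = 0.0582). Acsl3, an enzyme of lipid droplets, had a difference of 0.26 (-0.04 to 0.55) and the mitochondrial Acsl5 one of 0.06 (-0.10 to 0.23). Of a list of other activating enzymes and thioesterases, the 5 tested genes were all thioesterases, which release free fatty acids from acyl-CoA. No activating enzyme of that list had a probe set above the floor. Among the 5, Acot13 fell by 0.30 (SE 0.07, adjusted p = 0.0333) while Acot9 at -0.19 (adjusted p = 0.0544) and Acot8 at 0.06 did not pass. The call of Acot13 ended in 6 of the 8 fits without 1 array.

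The member genes of fatty acid synthesis lay on the higher side. Those of the further synthesis list given below did not, with 4 of 12 above 0. Over all tested genes 4608 of 9511 differences were above 0. Of 10 measured members 3 rose (30.0%, beside 4.95% of all tested genes) and none fell (beside 4.23%). All 10 differences were above 0, with a median of 0.22 and a range of 0.05 to 0.37. All 10 stayed above 0 under both other scalings of the arrays and in each fit without 1 array. The exception among the alternatives was Acly, below 0 when the mean of its probe sets, dim ones included, stood for the gene. The 12 other probe sets of these genes above the floor all had positive differences as well. The mean over the 10 genes was 10.10 ± 0.06 across WT lines and 10.31 ± 0.04 across Cry DKO lines (SD, n = 4 each).

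The called synthesis genes all act on chains already made. Elovl6, which lengthens saturated and monounsaturated chains from palmitate, had 8.49, 8.45, 8.43 and 8.46 among WT and 8.92, 8.76, 8.96 and 8.68 among Cry DKO lines. The WT lines were nearly equal (SD 0.02), and all Cry DKO lines were higher. The rise was 0.37 (SE 0.08, adjusted p = 0.0143 in limma) and held in each fit without 1 array. In the pair with equal macrophage means, picked after the values were seen, the signals differed by 0.48. Without overlap every pair of a WT and a Cry DKO line differed, so this pair cannot show the part of macrophage RNA. With the macrophage covariate the Elovl6 difference was 0.36 (SE 0.12, adjusted p = 0.189), not called and at a wider SE.

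Fads1, the delta-5 desaturase of polyunsaturated fatty acids, had 10.08, 10.32, 10.33 and 10.09 among WT and 10.52, 10.50, 10.50 and 10.50 among Cry DKO lines. The Cry DKO lines nearly coincided (SD 0.01) above all WT lines, of which lines 1 and 4 were the lower pair. The gene rose by 0.30 (SE 0.07, adjusted p = 0.0225 in limma), a call that ended without WT replicate 1 or WT replicate 4, and its dimmer second probe set gave 0.12. Elovl5, an elongase of polyunsaturated chains, had 10.15, 10.00, 10.06 and 10.01 among WT and 10.42, 10.37, 10.22 and 10.25 among Cry DKO lines. WT line 1 and Cry DKO line 3, the pair with equal macrophage means, lay closest to each other, 0.07 apart. Elovl5 rose by 0.26 (SE 0.06, adjusted p = 0.0295). That call ended without WT replicate 2, 3 or 4 or Cry DKO replicate 1 or 2. The second probe set of Elovl5 gave 0.20 and was not called when it stood for the gene. With the macrophage covariate the Elovl5 difference was 0.11 (SE 0.08), less than before.

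Scd1, the main delta-9 desaturase, had 9.91, 10.26, 9.73 and 9.88 among WT and 10.28, 10.26, 10.31 and 10.21 among Cry DKO lines. WT line 2 lay among the Cry DKO lines and the other 3 WT lines below them. The difference of 0.32 (SE 0.10, adjusted p = 0.0614 in limma) did not pass, whereas without WT replicate 2 it was 0.43 (adjusted p = 0.00858). Its second probe set gave 0.46 (adjusted p = 0.0279 when it stood for the gene). Fads2, the delta-6 desaturase, had a difference of 0.26 (adjusted p = 0.158) with WT line 2 again the highest WT line. The other members of synthesis were not called either. Acaca, acetyl-CoA carboxylase, had 8.44, 8.64, 8.55 and 8.62 among WT and 8.70, 8.91, 8.67 and 8.73 among Cry DKO lines, separate groups by a narrow margin, and a difference of 0.19 (adjusted p = 0.157). Differences were 0.10 (-0.08 to 0.28) for the synthase Fasn, 0.10 (-0.05 to 0.26) for the citrate lyase Acly, 0.09 (-0.04 to 0.22) for Scd2 and 0.05 (-0.05 to 0.15) for the elongase Elovl1.

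Other genes of synthesis did not share this side. Of 12 tested genes of a further synthesis list none was called, 4 had positive and 8 negative differences, and the median was -0.07. The dehydratase Hacd1 at -0.25 (adjusted p = 0.104 in limma) and the enoyl-CoA reductase Tecr at -0.11, both of the elongation cycle, had the smallest p-values. Among 16 tested regulators of lipid genes 1 was called. Insig2, which retains the SREBP escort protein in the endoplasmic reticulum, fell by 0.33 (SE 0.07, adjusted p = 0.0214), from 9.19 ± 0.03 (SD, n = 4) to 8.86 ± 0.14, a call that ended in 6 of the 8 fits without 1 array. Neither Cebpg, at 0.17, nor the PPAR partner Rxra, at -0.25, passed. Of other genes of the SREBP system, Srebf1 had 0.05, Srebf2 0.07, the escort protein gene Scap -0.28 and Insig1 0.19, none called. Activity of SREBP was not tested.

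**Figure D3:**
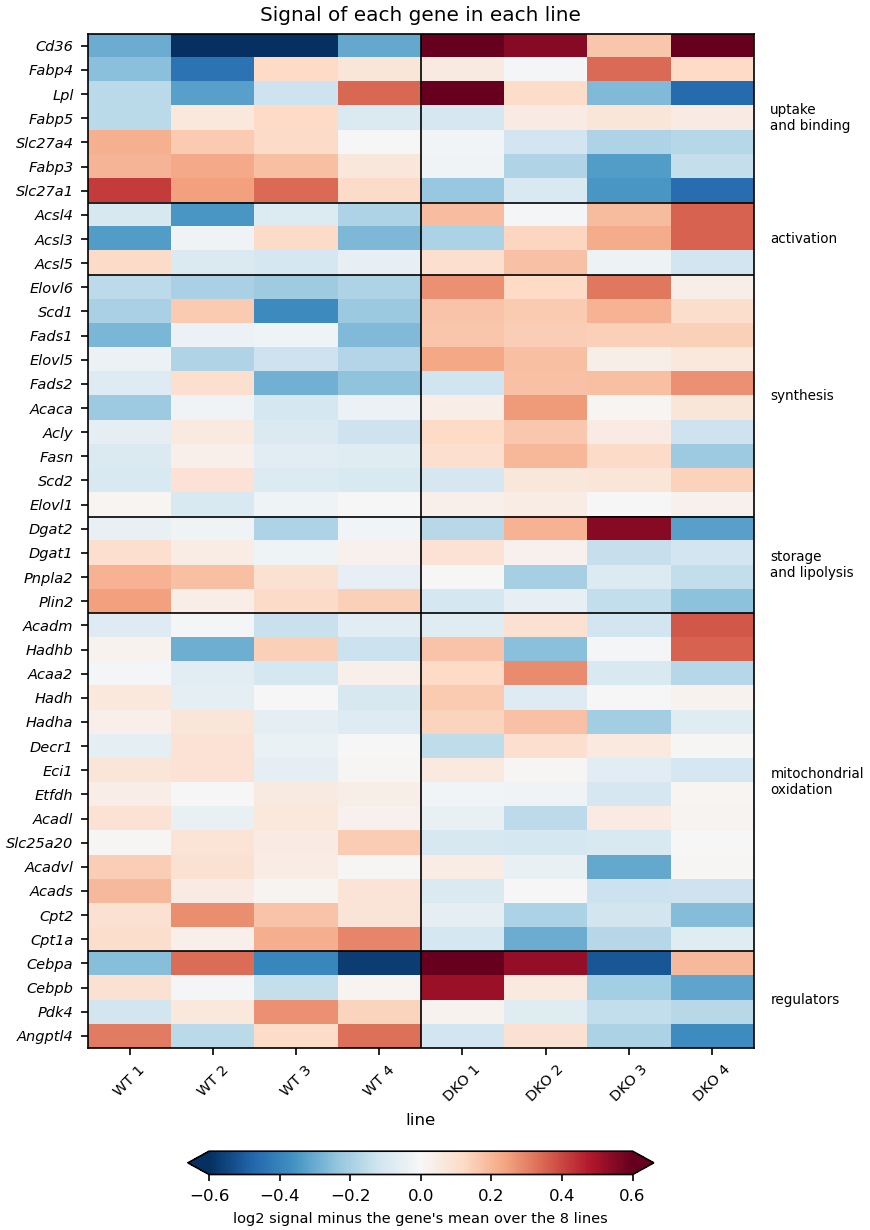
Signal of the 42 genes in each of the 8 lines, as log2 signal minus the mean of the gene over all lines (colour scale from -0.6 to 0.6, stronger values drawn at its ends); rows are grouped by step and ordered by difference. Synthesis genes are mostly blue in WT and red in Cry DKO lines, and Lpl, Dgat2, Cebpa and Cebpb vary within the Cry DKO lines.

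Of 4 measured storage genes 1 fell (25.0%, beside 4.23% of all tested genes) and none rose (beside 4.95%). Plin2, the perilipin that coats lipid droplets in most cells, had 11.59, 11.39, 11.47 and 11.49 among WT and 11.25, 11.30, 11.20 and 11.10 among Cry DKO lines. All Cry DKO lines were below all WT lines, and the gene fell by 0.27 (SE 0.06, adjusted p = 0.0195 in limma). The call ended without WT replicate 1 or WT replicate 3. With the macrophage covariate, which itself was higher in Cry DKO lines, the difference was -0.38 (SE 0.09, adjusted p = 0.092), further from 0 than before. Pnpla2, the adipose triglyceride lipase, had a difference of -0.21 (-0.41 to -0.02, adjusted p = 0.159), Dgat1, which adds the last acyl chain of triglyceride, one of -0.07 (-0.24 to 0.10) and Dgat2, a second enzyme of that step, one of 0.13 (-0.25 to 0.51). Dgat2 spread widely in Cry DKO lines, from 6.40 in line 4 to 7.28 in line 3. Of 18 tested genes of a further storage list, Fitm2, needed for droplet formation, fell by 0.34 (SE 0.09, adjusted p = 0.0448), and no other was called. That call ended in all 8 fits without 1 array. Next by p were Agpat3 at -0.16 and Plin3 at -0.19, which did not pass.

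Of 14 mitochondrial oxidation genes 2 fell (14.3%, beside 4.23% of all tested genes), both of them in the carnitine shuttle. None rose, beside 4.95% of all tested genes. Cpt1a, the outer membrane enzyme that sets the pace of entry, had 8.80, 8.73, 8.91 and 8.99 among WT and 8.59, 8.40, 8.53 and 8.62 among Cry DKO lines. It fell by 0.32 (SE 0.08, adjusted p = 0.0307 in limma), with no overlap. A dimmer probe set above the floor, with a mean of 6.46, gave 0.12, the opposite sign, without passing (adjusted p = 0.79). The call ended without WT replicate 1, 3 or 4 or Cry DKO replicate 2 or 3. Cpt2, the inner membrane enzyme, had 8.020, 8.207, 8.098 and 8.003 among WT and 7.869, 7.735, 7.814 and 7.666 among Cry DKO lines. It fell by 0.31 (SE 0.08, adjusted p = 0.0381), and of the fits without 1 array only that without Cry DKO replicate 1 kept the call. Slc25a20, the carrier between them, had 9.08, 9.16, 9.13 and 9.22 among WT and 8.98, 8.97, 8.98 and 9.08 among Cry DKO lines. Those groups were separate by less than 0.01, and the difference of -0.15 (SE 0.06, adjusted p = 0.164) did not pass. With the macrophage covariate Cpt1a and Cpt2 had differences of -0.37 (SE 0.13) and -0.28 (SE 0.13).

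The enzymes of the oxidation spiral itself were not called. Acads, the short-chain acyl-CoA dehydrogenase, had 8.42, 8.28, 8.24 and 8.31 among WT and 8.14, 8.22, 8.10 and 8.10 among Cry DKO lines, separate groups with a difference of -0.17 (-0.33 to -0.02, adjusted p = 0.161 in limma). Differences of the other dehydrogenases were -0.15 for Acadvl (very long chains), -0.07 for Acadl (long chains) and 0.14 for Acadm (medium chains). The subunits of the trifunctional protein had 0.02 for Hadha (-0.17 to 0.21) and 0.13 for Hadhb (-0.15 to 0.41), while a second probe set of Hadhb gave -0.10. The short-chain hydroxyacyl dehydrogenase Hadh had 0.05 and the thiolase Acaa2 had 0.07. For chains with double bonds, the isomerase Eci1 had -0.05 and the reductase Decr1 had 0.01, and Etfdh, which passes the electrons to the respiratory chain, had -0.06 (-0.19 to 0.06). Over the 14 members of oxidation the median difference was -0.06, with 6 positive and 8 negative values. Whether the shuttle differed from the spiral enzymes was not tested.

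Other mitochondrial genes gave 2 calls among 19 tested (10.5%), near the 9.18% of all tested genes. Pdk1, a kinase that restrains pyruvate oxidation, rose by 0.53, and Cpt1c, a brain-type relative of Cpt1a found in the endoplasmic reticulum, fell by 0.30 (SE 0.08, adjusted p = 0.0362 in limma; the call ended in 6 of the 8 fits without 1 array). When its second probe set stood for it, Pdk1 had 0.21 (adjusted p = 0.162). Acad11 and Acadsb, dehydrogenases of acyl-CoA chains, gave -0.27 and -0.25 without passing. None of 10 tested peroxisomal oxidation genes was called in limma, 1 had an unadjusted p under 0.05, and their median difference was 0.01. The peroxisomal multifunctional enzyme Hsd17b4 had 0.29 (adjusted p = 0.121) and the reductase Pecr 0.19. Across all 7 lists of other fatty acid genes 5 of 88 tested were called, 1 higher and 4 lower, or 5.68% beside 9.18% of all tested genes.

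None of the 4 regulators among the members was called, and 1 had an unadjusted p under 0.05. Cebpa, a transcription factor of adipocytes and myeloid cells, had 6.13, 6.72, 5.99 and 5.81 among WT and 7.05, 6.91, 5.87 and 6.58 among Cry DKO lines. Its groups overlapped widely, and 3 of its 8 values lay below the floor. The difference of 0.44 (SE 0.26, adjusted p = 0.331 in limma) was larger than the SD of WT lines (0.39) and smaller than that of Cry DKO lines (0.53). With the macrophage covariate it was 0.10 (SE 0.39). Cebpb, a factor of early adipogenesis and inflammation, had a difference of 0.02 (-0.30 to 0.35), with 10.72, 10.26, 10.00 and 9.89 in Cry DKO lines against 10.06 to 10.30 in WT lines. For this gene as for Lpl, Cry DKO line 1 was the highest and line 4 the lowest of their genotype. Pdk4, which restrains pyruvate oxidation when fatty acids are burned, had -0.18 (-0.40 to 0.03), and Angptl4, a secreted inhibitor of lipoprotein lipase, had -0.30 (-0.59 to -0.01, adjusted p = 0.192).

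**Figure D4:**
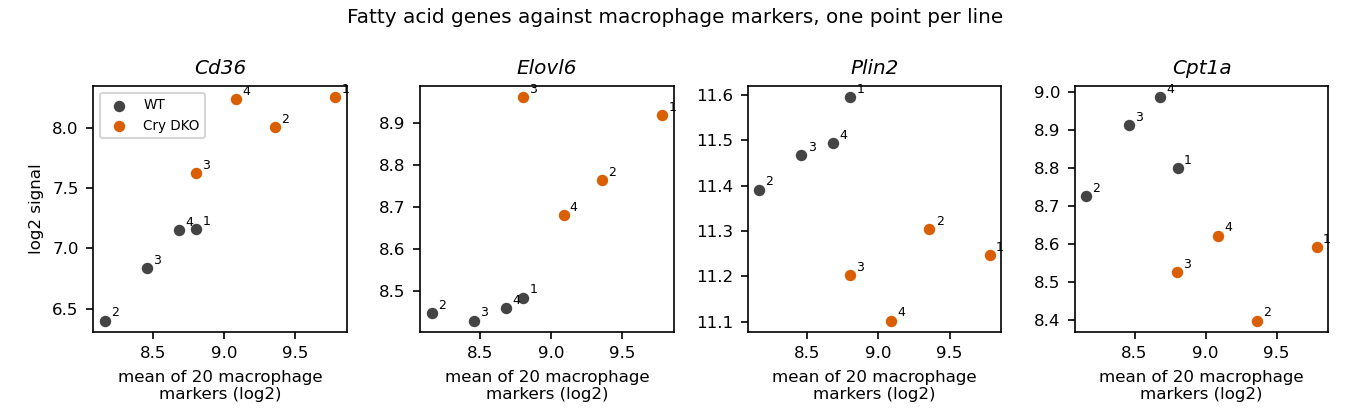
Signal (log2) of Cd36, Elovl6, Plin2 and Cpt1a in each line against the mean of 20 macrophage markers (log2) in the same line; points are single lines, numbered within WT and Cry DKO. Within WT, Cd36 stands in the same order as the macrophage mean. Within Cry DKO, line 1 is highest and line 3 lowest for both, while lines 2 and 4 change places. WT line 1 and Cry DKO line 3 share the macrophage mean of 8.80, a pair picked after the values were seen. The genotypes do not overlap for these 4 called genes, so every pair of a WT and a Cry DKO line differs.

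The number of calls depended on the lines included. It was 3 when WT replicate 1 or WT replicate 3 was left out, 4 when WT replicate 4 was, and 6 without Cry DKO replicate 2 or 3, with 7 or 8 in the remaining fits without 1 array. A term for sex left 6 calls: Cd36, Fabp3, Slc27a1, Elovl6, Fads1 and Plin2. With the macrophage mean as a covariate none of the 42 was called in limma, and 37 of all 9511 genes were. That covariate differs between the genotypes, and the SE of each of the 10 called members was larger with it. The differences of 5 called members, Fabp3, Slc27a1, Fads1, Plin2 and Cpt1a, were then further from 0 than without it, at -0.45, -0.69, 0.39, -0.38 and -0.37. Those of the other 5 were closer to 0, at 0.60 for Cd36, 0.33 for Acsl4, 0.11 for Elovl5, 0.36 for Elovl6 and -0.28 for Cpt2. Between WT line 1 and Cry DKO line 3, of equal macrophage mean, differences were 0.46 for Cd36, 0.29 for Acsl4 and 0.07 for Elovl5. For Elovl6, Fads1, Fabp3, Slc27a1, Plin2, Cpt1a and Cpt2 they were 0.48, 0.42, -0.54, -0.77, -0.39, -0.27 and -0.21. This pair is 1 line per genotype and carries no test.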

How the data were processed

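Total RNA of 8 lines was labelled with biotin and hybridised to Affymetrix arrays, per the labels' protocols, from 5 ug of RNA. The authors deposited log2 values between 0.0675 and 14.3, base 2 being inferred from that range. The submitters' processing notes name GCOS and no version. How signals were summarised and normalised is not given in the sources used. Values entered the test as deposited.

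Of 30506 probe sets, 24838 were annotated to 1 gene, 658 to several, 4949 are unnamed here and 61 are controls. Identifiers of 24757 were found in RefSeq (GRCm38.p6), which gave current symbols. Probe sets of 1 gene with a mean at or above the 40th percentile (6.06) were kept, and the one of highest mean stood for a gene. The test was that of limma 3.58.1 (R 4.3.3), moderated along an intensity trend, between the genotypes and with no covariate. On simulated data for the 9511 genes, calls were made for 68.2% of genes shifted by 0.5, 96.3% of genes shifted by 1 and 0.112% of the rest. Changes near 0.3, the size of most calls here, were not simulated. The members and lists were chosen with earlier results of these data known. All members are named, with values by line for those called, separate between genotypes or differing by at least 0.3. Other genes are named where called or among the 2 of smallest p in their list. Srebf1, Srebf2, Scap and Insig1 are given besides. Alternatives were 22 other settings.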

Additional observations from a re-analysis of the deposited data

Results flagged for a closer look

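Among 84 groups of 4 lines (42 genes in each genotype), 5 held 1 line far from the other 3 by Dixon's criterion at 4 samples. Chance alone marks about 1 in 20 groups, which is near this count. In WT lines, Scd2 was 12.9 in replicate 2, with the other 3 between 12.73 and 12.74, and Dgat2 was 6.55 in replicate 3, with the others between 6.69 and 6.72. In Cry DKO lines, Fabp5 was 12.6 in replicate 1, with the others between 12.78 and 12.81. Fads1 was 10.5 in Cry DKO replicate 1, by 4 digits 10.52 against 10.50 in each of the others, a gap that is wide only beside their small range. Slc25a20 was 9.08 in Cry DKO replicate 4, against 8.97 to 8.98 in the others, close to the lowest WT line at 9.08.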

How the results depend on the processing

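The count of called members (10) was 6 with the mean of all probe sets, 6 with sex as a term, 0 with the macrophage covariate and 3 to 8 without 1 array. It was within 1.5 times of 10 under other filters, other scalings, each probe set tested, the second probe set, no trend, robust fitting and array weights. A similar count did not mean the same genes. With the second probe set the 7 calls were Fabp3, Slc27a1, Acly, Scd1, Elovl6, Plin2 and Cpt2. Of these, Fabp3, Slc27a1, Plin2 and Cpt2 had no second probe set above the floor and kept their first. Cd36, Acsl4, Elovl5, Fads1 and Cpt1a were not called under that setting. Over all genes the count of 873 was 520 with sex as a term, 37 with the macrophage covariate and 386 to 684 without 1 array. The 5 calls among other fatty acid genes became 3 without a trend, 3 with sex as a term, 0 with the macrophage covariate and 1 to 3 without 1 array. Fewer samples in the fits without 1 array are part of their construction; other causes were not tested. The difference of Cpt1a was 0.12 with its second probe set.

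With a replicate block the counts were 10 members, 5 other fatty acid genes and 1051 of all genes. Lines of the same number correlated in their deviations from the genotype mean by 0.36, 0.12, 0.23 and -0.01, so not every pair was over 0.1 and the lines were not treated as pairs. That 6 of 8 lines correlated best with their own number is a hint of pairing from the data, not from the design. By Xist and Y-linked signals, lines of number 1 were female and those of numbers 2 and 3 male in both genotypes. Line 4 was male in WT and female in Cry DKO, so number and sex partly coincide. The part of sex in these correlations was not tested. Dim probe sets and the number of arrays limit what can be seen.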

Other observations

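Probe sets of the same gene gave a second reading of the members. The 42 genes had 85 probe sets, and 13 genes had a single one. Of 26 further probe sets above the floor, 7 belonged to called genes, and 6 of these 7 had the sign of the probe set that stood for the gene, the exception being Cpt1a. With each probe set tested and no floor, none of these 7 passed, the lowest adjusted p being 0.0753 in limma, for Cd36. When second probe sets stood for their genes, only that of Elovl6 among them was called. Acly, the source of cytosolic acetyl-CoA, had 0.10 with its brightest probe set, 0.25 with the second (adjusted p = 0.0165 in limma when it stood for the gene) and 0.15 with the third. The second probe set of Dgat2 gave 0.42 beside 0.13, and that of Fabp4 0.38 beside 0.25, neither called.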
